A study of Homo sapiens with 6 samples.

Results

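The genes described here encode the enzymes of the tricarboxylic acid (TCA) cycle, those that bring pyruvate into it, and those that exchange its carbon with glutamate and glutamine. They are 36 genes named by symbol, of 60623 named genes in the deposited table, listed by their role with no threshold on any value, though with earlier results of these data known, and each symbol had 1 row. The libraries carry the label of RPMI-8226, an established line of human multiple myeloma, and were all taken at 48 h. In 3 of them the cells had received XYA1353, a compound that the series title links to NF-kB signalling, and 3 were controls. No dose and no vehicle are named in the labels used here. Nor do they say whether the replicates are separate cultures. The p-values therefore reflect the spread among these libraries alone, and that spread may be technical.

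The cycle takes up acetyl-CoA, made from pyruvate by the pyruvate dehydrogenase complex, joins it to oxaloacetate and oxidises the citrate formed, so that electrons pass to the respiratory chain. Carbon also enters from glutamine by way of glutamate, and leaves as citrate for lipid synthesis, as aspartate for nucleotides and as phosphoenolpyruvate. Several steps exist as a mitochondrial and a cytosolic enzyme encoded by different genes, and the pyruvate dehydrogenase complex is switched off by kinases and on by phosphatases. Proliferating blood cancer cells are known to draw on both pyruvate and glutamine, and erythroid cells also take succinyl-CoA from the cycle for heme.

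Expression was given as TPM, an abundance corrected for gene length and scaled to one fixed total per library. Such values keep no trace of sequencing depth, which is unknown for every value below. Named genes at 1 TPM or more numbered 13360 to 13693 in XYA1353 libraries and 12892 to 13180 in control libraries. The labelled cell type did not match its markers: of 20 plasma cell and myeloma genes, 16 had a mean under 1 TPM and 7, among them MAF, JCHAIN and CD38, were listed at 0 in every library. The erythroid list looked different, with 17 of its 18 genes at 10 TPM or more on average. The summed erythroid markers ranged from 7059 to 18709 TPM in XYA1353 libraries and from 10873 to 13624 TPM in control libraries, and the groups overlapped. The summed plasma cell markers ranged from 190.3 to 238.9 TPM in XYA1353 libraries and from 157.5 to 164.7 TPM in control libraries. XBP1 was the largest part of that sum, at 144, 122 and 98.6 TPM in XYA1353 and 68.3, 70.8 and 65.1 TPM in control libraries, followed by NSD2 and CCND2. No gene of the megakaryocyte, T cell, myeloid and fibroblast lists had a mean of 10 TPM or more. The part of these shifts in the results was not tested.

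In XYA1353 libraries most cycle and pyruvate dehydrogenase transcripts were lower than in controls, while 5 transcripts were higher. GLUL, the glutamine synthetase gene, and DLAT, the acetyltransferase of the pyruvate dehydrogenase complex, had the lowest fold changes of the members and fell to 52.7% and 55.3% of the control mean. The genes that rose were PDK4, a kinase that switches the complex off, IDH1 and IDH2, the NADP-linked isocitrate dehydrogenases, PCK2, the mitochondrial phosphoenolpyruvate carboxykinase, and GOT1, the cytosolic aspartate aminotransferase. The limma test covered 13392 genes that averaged 1 TPM or more, on the log2(TPM + 1) scale, which understates changes at low levels, and genes with an adjusted p (Benjamini-Hochberg) under 0.05 are spoken of as called. Of the 36 members 32 were tested, and 5 rose (15.6% of those tested), 18 fell (56.25%) and 9 were not called. Over all genes tested 15.4% were called higher and 16.0% lower, 31.4% in all. The share of members that rose was thus near that of all genes. The median log2 fold change was -0.27 for the 32 members and 0.02 for all genes tested, and in XYA1353 libraries 1, 2 and 3 the median of the members was -0.27, -0.36 and -0.28. The values of the 2 groups did not overlap for 22 members that were lower and 6 that were higher, against 23.8% of all genes tested in each direction and 47.6% in either. In bulk RNA, fewer cells of a type and less RNA per cell cannot be told apart. With both libraries numbered 1 left out, PDK4 and PCK2 still rose and 9 members fell, and the other 12 calls were lost (adjusted p from 0.0513 to 0.199). Without a mean-variance trend 14 members fell, the calls of ACO1, DLD, SUCLG1 and GLUD1 being lost (adjusted p from 0.054 to 0.0922), and with no filter on low values that of ACO1 was lost (adjusted p = 0.0518). With 1 library left out at a time, 4 or 5 rose and 12 to 18 fell, the fewest that fell being those without control replicate 1.

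**Figure D1:**
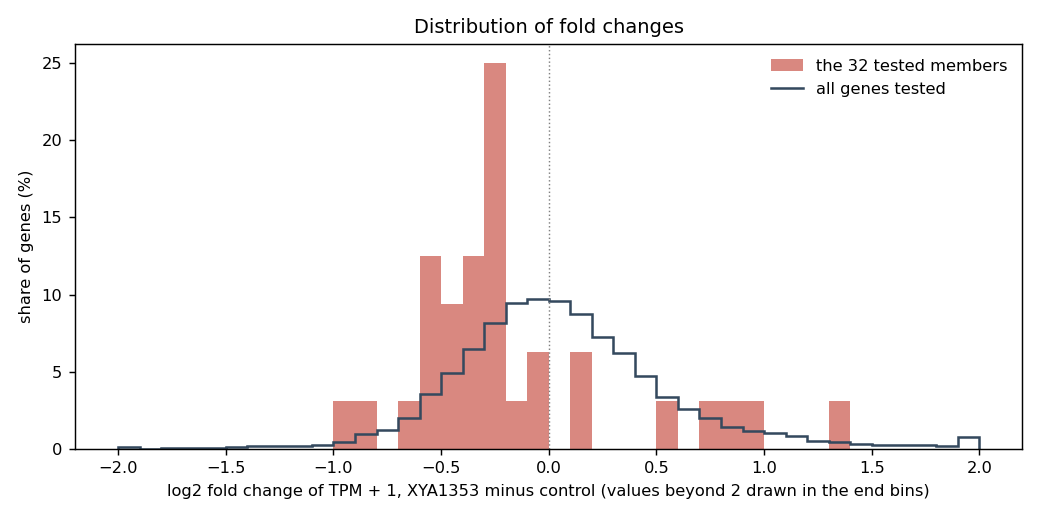
The log2 fold change, XYA1353 minus control, is on the x axis and the share of genes in each bin, in percent, on the y axis, with filled bars for the 32 tested members and a line for all 13392 genes tested. The members pile up left of 0, around their median of -0.27, with the 5 called higher at 0.57 or more to the right.

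Summed over the 36 members, the level was 2366, 2412 and 2497 TPM in the XYA1353 libraries, against 2974, 3096 and 3028 TPM in the controls. All 3 XYA1353 libraries lay below all 3 controls. Mitochondrially encoded transcripts were also a smaller share, with 10.6% ± 0.96 of TPM in XYA1353 and 14.8% ± 0.259 in control libraries (SD, n = 3 each). After rescaling each library without mitochondrially encoded, immunoglobulin and ribosomal RNA genes, 5 members rose and 22 fell, with IDH3G, DLST, PDHA1 and ME2 called in addition. Of all 13368 genes then tested, 1760 rose and 2686 fell, against 2067 and 2143 in the main fit. The median log2 fold change of all genes was then -0.04, against 0.02 in the main fit, so genes at large also shifted downward. SSR4 at IDH3G, APIP at PDHX, LRFN4 at PC, DCAF6 at MPC2 and SHLD2 at GLUD1 overlap these members on the other strand at 10 TPM or more in a group, and use of the strand in counting is not stated, so these members' levels are uncertain. Per-library values below are in the order of replicates 1, 2 and 3.

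**Figure D2:**
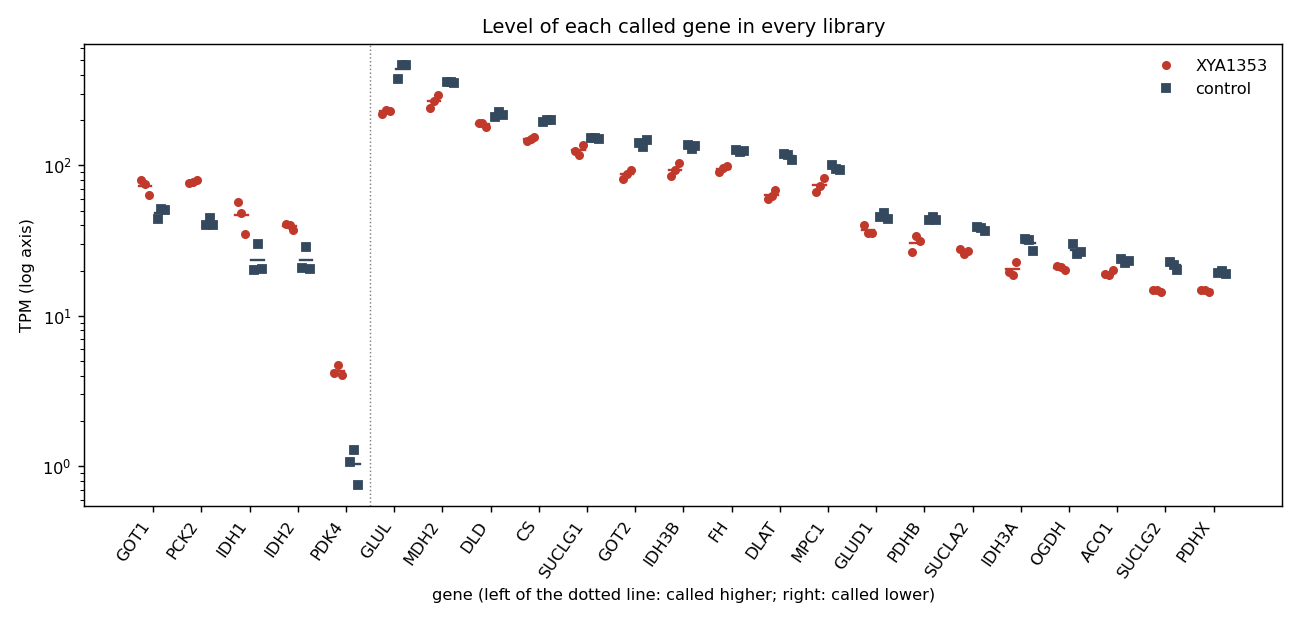
The TPM of each called gene is on the y axis (log scale), with a point for every XYA1353 and control library and a short line for the group mean. The 5 genes called higher stand left of the dotted line and the 18 called lower to its right, and for none of the 23 do the points of the groups overlap.

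Citrate synthase, encoded by CS, condenses acetyl-CoA with oxaloacetate. Its transcript stood at 144, 149.7 and 153 TPM in the XYA1353 libraries, against 195, 199.6 and 199 TPM in the controls, with no overlap (log2 fold change -0.41, SE 0.05, limma adjusted p = 0.0024). A same-strand gene that overlaps CS in the annotation, AC073896.1, stood at 27.5 TPM in XYA1353 and 42.4 TPM in control libraries, so how reads were divided between them is uncertain. ACO1, the cytosolic aconitase, which also serves as an iron-sensing RNA-binding protein, averaged 19.2 ± 0.768 TPM in XYA1353 and 23.1 ± 0.767 TPM in control libraries (SD, n = 3 each), a log2 fold change of -0.25 (limma adjusted p = 0.047). That call was lost in a fit with a replicate block (adjusted p = 0.0644), under quantile normalization (adjusted p = 0.0506) and when any single library but XYA1353 replicate 3 was dropped (adjusted p from 0.0921 to 0.135).

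The isocitrate dehydrogenases split by cofactor. IDH1, the NADP-linked enzyme of cytosol and peroxisomes (ENSG00000138413, minus strand of GRCh38 chromosome 2, 208236227 to 208266074), stood at 56.9, 48.3 and 34.7 TPM in the XYA1353 libraries, against 20.2, 29.8 and 20.5 TPM in the controls (log2 fold change 0.95, SE 0.21, limma adjusted p = 0.0137). XYA1353 replicate 1 was the highest and replicate 3, still above every control, the lowest of the treated libraries. IDH2, the NADP-linked enzyme of mitochondria (ENSG00000182054, minus strand of GRCh38 chromosome 15, 90083045 to 90102504), stood at 41.0, 40.4 and 37.4 TPM in the XYA1353 libraries, against 20.8, 28.8 and 20.4 TPM in the controls (log2 fold change 0.75, SE 0.14, limma adjusted p = 0.00672). The treated libraries lay close together, whereas control replicate 2 stood above the other 2 controls for both genes. Dropping XYA1353 replicate 2, or control replicate 1 or 3, ended the IDH1 call (adjusted p from 0.0559 to 0.0577), and dropping both libraries numbered 1 ended both calls (adjusted p = 0.129 for IDH1 and 0.0842 for IDH2).

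The NAD-linked isocitrate dehydrogenase, the form that works within the cycle, has a catalytic subunit, IDH3A, and the regulatory subunits IDH3B and IDH3G. IDH3A fell to 19.5, 18.7 and 22.7 TPM in the XYA1353 libraries, against 32.6, 31.8 and 27.1 TPM in the controls (log2 fold change -0.56, limma adjusted p = 0.00855). IDH3B stood at 84.8, 92.5 and 103 TPM in the XYA1353 libraries, against 136, 129 and 134 TPM in the controls (log2 fold change -0.50, limma adjusted p = 0.00454). For both, every treated library lay below every control. IDH3G averaged 77.0 ± 6.33 TPM in XYA1353 and 90.3 ± 1.71 TPM in control libraries (SD, n = 3 each) and was not called (log2 fold change -0.23, adjusted p = 0.0528), although its groups did not overlap. It was called without XYA1353 replicate 2 (adjusted p = 0.0435). The IDH3A call was lost without both libraries numbered 1 (adjusted p = 0.0937). The 3 subunit transcripts together came to 175, 195 and 203 TPM in the XYA1353 libraries, against 259, 249 and 252 TPM in the controls. IDH1 and IDH2 together came to 98.0, 88.7 and 72.1 TPM in the XYA1353 libraries, against 41.0, 58.7 and 40.9 TPM in the controls.

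Of the next enzyme of the cycle 2 of 3 subunit transcripts fell. The 2-oxoglutarate dehydrogenase complex consists of OGDH, DLST and DLD. OGDH, the decarboxylating subunit, averaged 20.9 ± 0.625 TPM in XYA1353 and 27.3 ± 2.26 TPM in control libraries (SD, n = 3 each; log2 fold change -0.37, adjusted p = 0.0174), and DLD, the dihydrolipoyl dehydrogenase that several such complexes share, 187 ± 6.79 TPM in XYA1353 and 217 ± 7.67 TPM in control libraries (SD, n = 3 each; -0.21, adjusted p = 0.0303). DLST, the succinyltransferase, was not called (-0.17, adjusted p = 0.0676). The 3 genes did not overlap between groups. Dropping XYA1353 replicate 2 or control replicate 1 or 3 ended the OGDH call (adjusted p from 0.0501 to 0.0572), and dropping XYA1353 replicate 2 or any single control ended that of DLD (adjusted p from 0.0548 to 0.102). Under quantile normalization the DLD value was -0.10 (adjusted p = 0.284).

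Succinyl-CoA ligase pairs an alpha subunit, SUCLG1, with a beta subunit that is either GTP-forming, SUCLG2, or ATP-forming, SUCLA2. Both beta subunits fell. SUCLG2 stood at 14.9, 14.8 and 14.4 TPM in the XYA1353 libraries, against 22.7, 21.9 and 20.3 TPM in the controls (log2 fold change -0.53, SE 0.08, limma adjusted p = 0.00426). SUCLA2 stood at 27.7, 25.8 and 27.1 TPM in the XYA1353 libraries, against 38.8, 38.6 and 36.8 TPM in the controls (log2 fold change -0.49, SE 0.07, limma adjusted p = 0.00329). SUCLG1 fell by 0.26 on the log2 scale (adjusted p = 0.0262), and its call did not hold when any single library but XYA1353 replicate 3 was dropped (adjusted p from 0.0643 to 0.0846) and under quantile normalization (adjusted p = 0.136). The SUCLG2 call was lost without both libraries numbered 1 (adjusted p = 0.0513). The ratio of SUCLA2 to SUCLG2 within a library was 1.85, 1.75 and 1.89 in the XYA1353 libraries, against 1.71, 1.76 and 1.82 in the controls, and the groups overlapped.

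Fumarase and malate dehydrogenase close the cycle. FH, which encodes fumarase in mitochondria and cytosol, stood at 89.6, 95.4 and 98.3 TPM in the XYA1353 libraries, against 126, 124 and 125 TPM in the controls (log2 fold change -0.40, SE 0.06, limma adjusted p = 0.0036). MDH2, the mitochondrial malate dehydrogenase, stood at 241, 268 and 291 TPM in the XYA1353 libraries, against 356, 356 and 350.2 TPM in the controls (log2 fold change -0.41, SE 0.07, limma adjusted p = 0.00669). In both genes the controls were within a few TPM of each other and the treated libraries lay clearly lower. MDH1, the cytosolic malate dehydrogenase, averaged 140.3 ± 5.40 TPM in XYA1353 and 146 ± 8.56 TPM in control libraries (SD, n = 3 each) and was not called (log2 fold change -0.06, SE 0.07, adjusted p = 0.538). Under quantile normalization its value was 0.05 (adjusted p = 0.607). Of the 16 cycle genes, 2 rose, 11 fell and 3 were not called. Their median log2 fold change was -0.32.

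**Figure D3:**
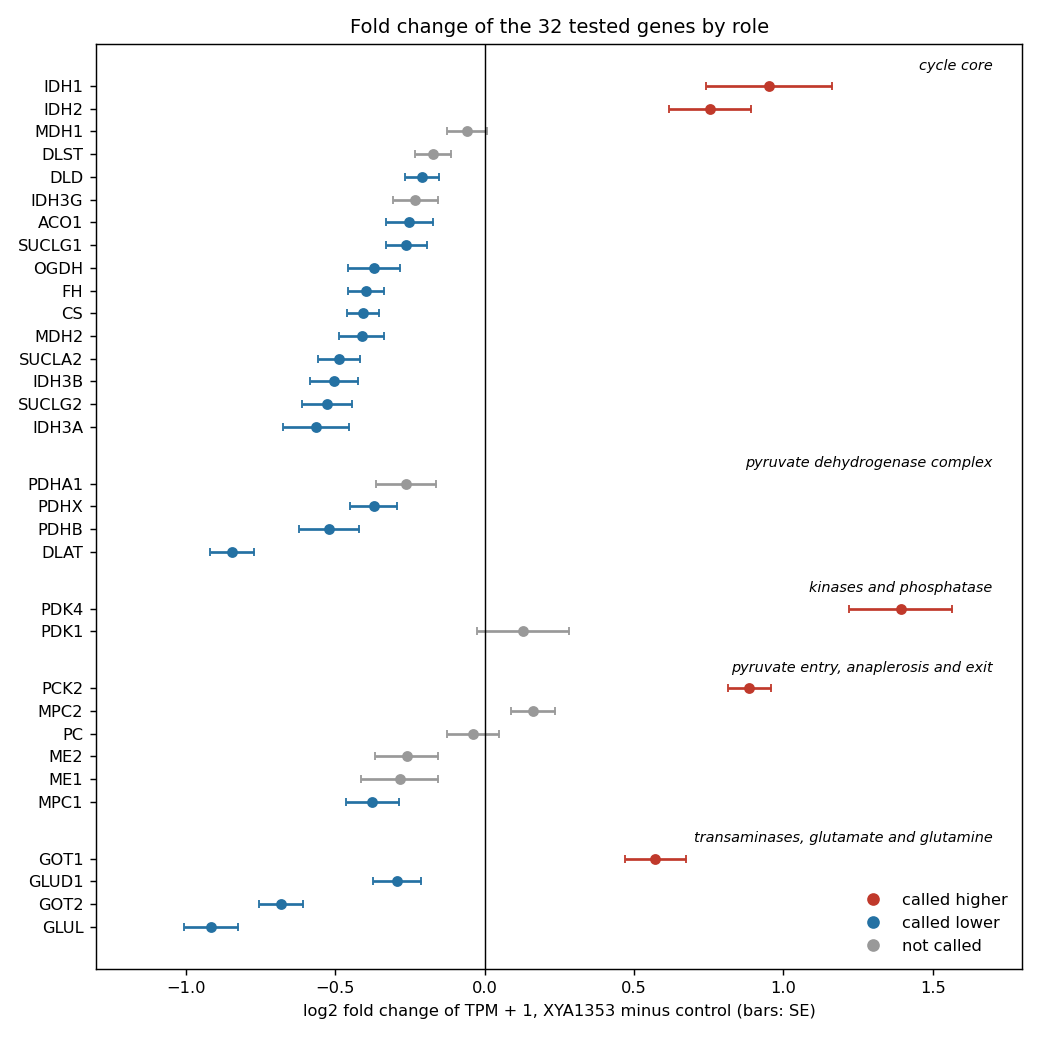
The log2 fold change of TPM + 1, XYA1353 minus control, is on the x axis with its SE as a bar, for the 32 tested genes grouped by role. IDH1, IDH2, PDK4, PCK2 and GOT1 stand to the right of 0, and most genes of the cycle and of the pyruvate dehydrogenase complex between -0.17 and -0.85.

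Of the 4 genes of the pyruvate dehydrogenase complex, 3 fell and 1 was not called, and that of the core subunit had the lowest fold change. DLAT, the dihydrolipoyl acetyltransferase that forms the core (ENSG00000150768, plus strand of GRCh38 chromosome 11, 112024814 to 112064390), stood at 60.0, 63.0 and 68.2 TPM in the XYA1353 libraries, against 119, 118 and 109 TPM in the controls (log2 fold change -0.85, SE 0.07, limma adjusted p = 0.00122). It ranked 290 from the lowest of the 13392 fold changes. PDHB, the beta subunit of the decarboxylase, stood at 26.4, 33.9 and 31.2 TPM in the XYA1353 libraries, against 43.2, 45.2 and 43.5 TPM in the controls (log2 fold change -0.52, adjusted p = 0.00829). PDHX, which tethers the dihydrolipoyl dehydrogenase to the core, stood at 14.8, 14.9 and 14.5 TPM in the XYA1353 libraries, against 19.2, 19.8 and 19.1 TPM in the controls (log2 fold change -0.37, adjusted p = 0.0116). The treated and control values were separate for all of these. PDHA1, the X-linked alpha subunit that the kinases phosphorylate, stood at 151, 132 and 176 TPM in the XYA1353 libraries, against 185, 181 and 181 TPM in the controls, and was not called (log2 fold change -0.26, adjusted p = 0.0888). XYA1353 replicate 3 was the highest treated library there, and without it PDHA1 was called (adjusted p = 0.0124). Without XYA1353 replicate 2 its log2 fold change was -0.16 (adjusted p = 0.217), and under quantile normalization -0.14 (adjusted p = 0.333). The PDHX call was lost without both libraries numbered 1 (adjusted p = 0.0767).

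Of the kinases that inactivate the complex 2 were tested, and PDK4 rose while PDK1 was not called. PDK4, known for its induction in fasting (ENSG00000004799, minus strand of GRCh38 chromosome 7, 95583499 to 95596491), stood at 4.19, 4.70 and 4.05 TPM in the XYA1353 libraries, against 1.07, 1.28 and 0.75 TPM in the controls (log2 fold change 1.39, SE 0.17, limma adjusted p = 0.00205). The lowest treated library was above the highest control, and with a pseudocount of 0.1 the log2 fold change was 1.99. PDK1, known as a hypoxia-induced kinase, was the most abundant of them in either group, at 10.6, 9.92 and 13.3 TPM in the XYA1353 libraries, against 8.47, 11.4 and 10.8 TPM in the controls (log2 fold change 0.13, SE 0.15, adjusted p = 0.553). PDK2 was listed at 0 in every library, and PDK3 was at most 0.46 TPM. PDK4 made up 27.5% ± 4.32 of the summed TPM of the 4 kinase genes in XYA1353 libraries and 9.19% ± 2.48 in control libraries (SD, n = 3 each). PDP1, a phosphatase that reactivates the complex, stood at 1.23, 1.00 and 1.02 TPM in the XYA1353 libraries, against 0.77, 0.51 and 0.60 TPM in the controls, and was too low to enter the test. With no filter on low values it was not called (log2 fold change 0.36, adjusted p = 0.145).

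PCK2 and GOT1 rose, and the isozyme of GOT1 in mitochondria, GOT2, fell. Their promoters, with that of GLUL, are shown because these genes rose or fell at points where carbon enters or leaves the cycle. The sequences are RefSeq windows of GRCh38.p14, from 250 bases before to 50 after a RefSeq start site, written 5′ to 3′ on the gene's strand. These start sites differ from the gene bounds printed below, and the windows of GOT1, PCK2 and GLUL lie within those bounds. Capitals mark TGATGNAAN, the C/EBP-ATF element, in GOT1 (chr10:99430575-99430874, minus strand), ACGTG, the core of the hypoxia element, in GOT2 (chr16:58734267-58734566, minus strand), and CCAAT, the NF-Y box, in PCK2 (chr14:24094061-24094360, plus strand) and GLUL (chr1:182391741-182392040, minus strand, the first of 2 windows), each read on both strands. The match in GOT1 lies on the opposite strand and so reads GTTGCATCA. A single kind of element is marked per gene, and the GOT1 window also holds CCAAT, left in lower case. The second GLUL window, not shown, holds no CCAAT.
GOT1: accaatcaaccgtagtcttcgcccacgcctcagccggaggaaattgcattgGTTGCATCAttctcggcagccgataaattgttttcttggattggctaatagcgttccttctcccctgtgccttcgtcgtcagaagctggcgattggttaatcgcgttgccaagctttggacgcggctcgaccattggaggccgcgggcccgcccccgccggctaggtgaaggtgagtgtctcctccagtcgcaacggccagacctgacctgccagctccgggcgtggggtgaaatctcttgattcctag
GOT2: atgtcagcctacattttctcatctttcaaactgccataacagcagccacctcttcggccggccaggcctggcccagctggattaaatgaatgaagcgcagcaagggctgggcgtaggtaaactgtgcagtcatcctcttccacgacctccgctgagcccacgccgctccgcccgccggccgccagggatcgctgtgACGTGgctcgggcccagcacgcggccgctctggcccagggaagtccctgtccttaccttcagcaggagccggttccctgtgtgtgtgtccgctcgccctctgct
PCK2: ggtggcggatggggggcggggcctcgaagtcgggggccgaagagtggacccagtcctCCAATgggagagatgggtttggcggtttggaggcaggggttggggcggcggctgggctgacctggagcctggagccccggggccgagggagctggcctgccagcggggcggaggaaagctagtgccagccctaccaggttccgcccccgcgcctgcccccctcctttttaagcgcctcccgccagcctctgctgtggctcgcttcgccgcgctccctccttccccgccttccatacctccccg
GLUL: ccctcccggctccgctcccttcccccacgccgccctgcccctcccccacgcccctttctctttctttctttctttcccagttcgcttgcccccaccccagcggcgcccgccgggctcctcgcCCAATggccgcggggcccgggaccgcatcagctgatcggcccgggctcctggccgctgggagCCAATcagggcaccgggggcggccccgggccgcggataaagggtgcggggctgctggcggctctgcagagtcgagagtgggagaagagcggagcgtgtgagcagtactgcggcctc
Windows were found for 34 of the 36 members. TGATGNAAN was in the window of GOT1 alone among the 34 (2.94%, of symbols 4.45%), against 3.61% of all 35116 windows. CCAAT was in a window of 23 members (67.6%), of which 4 rose and 9 fell, against 34.6% of all windows, or 39.7% of symbols with any window that holds it. The palindromic element of nuclear respiratory factor 1 (NRF1) was in 5 members (14.7%, of symbols 6.98%), namely GLUD1, IDH3A, IDH3G, MPC2 and SUCLA2. ACGTG was in 11 members (32.4%, of symbols 24.9%), and CACGTG, the E-box, which contains it, in 3 (8.82%, of symbols 8.77%). These matches describe letters in the windows and were not tested.

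PCK2, which turns oxaloacetate into phosphoenolpyruvate in mitochondria and is a gene that ATF4 is known to activate in other cells (ENSG00000100889, plus strand of GRCh38 chromosome 14, 24094053 to 24110598), stood at 76.2, 77.4 and 79.8 TPM in the XYA1353 libraries, against 39.9, 44.7 and 40.4 TPM in the controls (log2 fold change 0.89, SE 0.07, limma adjusted p = 0.00122). The replicates of each group lay within a few TPM of each other. PC, pyruvate carboxylase, which feeds oxaloacetate into the cycle, was not called, at 17.5, 19.9 and 18.1 TPM in the XYA1353 libraries, against 19.6, 19.2 and 18.3 TPM in the controls (log2 fold change -0.04, SE 0.09, adjusted p = 0.757). Without both libraries numbered 1 the value of PC was 0.02 (adjusted p = 0.926). The ratio of PCK2 to PC within a library was 4.36, 3.89 and 4.40 in the XYA1353 libraries, against 2.04, 2.32 and 2.20 in the controls.

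The mitochondrial pyruvate carrier is built of MPC1 and MPC2. MPC1 stood at 66.7, 72.7 and 82.3 TPM in the XYA1353 libraries, against 100.2, 94.2 and 93.2 TPM in the controls (log2 fold change -0.38, adjusted p = 0.0167). MPC2 stood at 116, 109 and 116 TPM in the XYA1353 libraries, against 105, 107 and 92.8 TPM in the controls, and was not called (log2 fold change 0.16, adjusted p = 0.138). The partner transcripts thus differed in sign, each without overlap between groups. Dropping XYA1353 replicate 2 or control replicate 1 or 2 ended the MPC1 call (adjusted p from 0.0502 to 0.0628), and MPC2 was called under quantile normalization (log2 fold change 0.29, adjusted p = 0.0231). The malic enzymes convert malate to pyruvate. ME1, the cytosolic form, and ME2, a mitochondrial form, were not called (-0.28, adjusted p = 0.134, and -0.26, adjusted p = 0.103), and ME3 was listed at 0 throughout. In a fit with a replicate block ME2 was called (adjusted p = 0.0466). Of the 6 tested genes of pyruvate entry and exit, PCK2 included, 1 rose, 1 fell and 4 were not called.

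The aspartate aminotransferases, which exchange amino groups between aspartate and glutamate and carry reducing equivalents in the malate-aspartate shuttle, moved in opposite directions. GOT1, the cytosolic enzyme (ENSG00000120053, minus strand of GRCh38 chromosome 10, 99396870 to 99431569), stood at 79.4, 74.7 and 63.7 TPM in the XYA1353 libraries, against 44.2, 51.0 and 50.2 TPM in the controls (log2 fold change 0.57, SE 0.10, limma adjusted p = 0.00643). GOT2, the mitochondrial enzyme (ENSG00000125166, minus strand of GRCh38 chromosome 16, 58707131 to 58734357), stood at 80.6, 87.5 and 92.9 TPM in the XYA1353 libraries, against 140.5, 133 and 146 TPM in the controls (log2 fold change -0.68, SE 0.07, limma adjusted p = 0.00153). In XYA1353 replicate 1 the 2 transcripts were nearly level, while in every control GOT2 was well above GOT1. Within a library the ratio of GOT1 to GOT2 was 0.986, 0.854 and 0.686 in the XYA1353 libraries, against 0.314, 0.382 and 0.343 in the controls. The GOT1 call was lost without both libraries numbered 1 (adjusted p = 0.0621).

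GLUL, which makes glutamine from glutamate and ammonia (ENSG00000135821, minus strand of GRCh38 chromosome 1, 182381704 to 182392206), was the most abundant member in controls. It stood at 219.9, 235 and 231 TPM in the XYA1353 libraries, against 375, 462 and 464 TPM in the controls (log2 fold change -0.91, SE 0.09, limma adjusted p = 0.00135). The treated libraries lay close together and well below the lowest control, which was replicate 1. Its fold change ranked 210 from the lowest of 13392. GLUD1, glutamate dehydrogenase, which releases 2-oxoglutarate from glutamate, stood at 40.2, 35.2 and 35.8 TPM in the XYA1353 libraries, against 45.2, 48.0 and 43.7 TPM in the controls (log2 fold change -0.29, adjusted p = 0.0306). Dropping any single library but XYA1353 replicate 1 ended the GLUD1 call (adjusted p from 0.0587 to 0.104). GLUD1P3, a pseudogene of GLUD1, stood at 7.78 TPM in XYA1353 and 6.01 TPM in control libraries, so the level of GLUD1 is uncertain. Of the 4 genes of aspartate, glutamate and glutamine exchange, 1 rose and 3 fell. Of 21 pseudogene rows named after members, the only other with a mean of at least 1 TPM in a group was DLSTP1.

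Ratios within a library do not depend on how libraries are scaled, and 8 pairs were compared with a two-sided exact permutation test over the 6 libraries, which takes no account of the pairing by replicate number. With 3 libraries a group the smallest p that test can give is 0.1, so no pair could pass 0.05. A paired exact test, added after the data were seen, cannot go below 0.25 with 3 pairs of libraries. The difference in log2 ratio, XYA1353 minus control, was 1.27 for GOT1 over GOT2, 0.94 for PCK2 over PC, -0.62 for GLUL over GLUD1 and 0.35 for MDH1 over MDH2, each with no overlap between groups (exact p = 0.1, Benjamini-Hochberg adjusted p = 0.2, paired exact p = 0.25). For MDH1 over MDH2, cytosolic over mitochondrial malate dehydrogenase, the ratio was 0.558, 0.527 and 0.499 in the XYA1353 libraries, against 0.388, 0.435 and 0.415 in the controls. The groups overlapped for IDH1 over IDH2 (0.20, exact p = 0.4), SUCLA2 over SUCLG2 (0.05, exact p = 0.3), ME1 over ME2 (-0.03, exact p = 0.6) and PDK1 over PDK3 (-1.06, exact p = 0.4), the last resting on PDK3 values under 0.5 TPM. With 1 TPM added to both genes the PDK1 over PDK3 difference was -0.03 (exact p = 0.9), and with single libraries left out it ran from -1.76 to -0.33. Over the single libraries left out the IDH1 over IDH2 difference ran from 0.07, without XYA1353 replicate 1, to 0.36, without XYA1353 replicate 3, and that of SUCLA2 over SUCLG2 from 0.03 to 0.09.

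**Figure D4:**
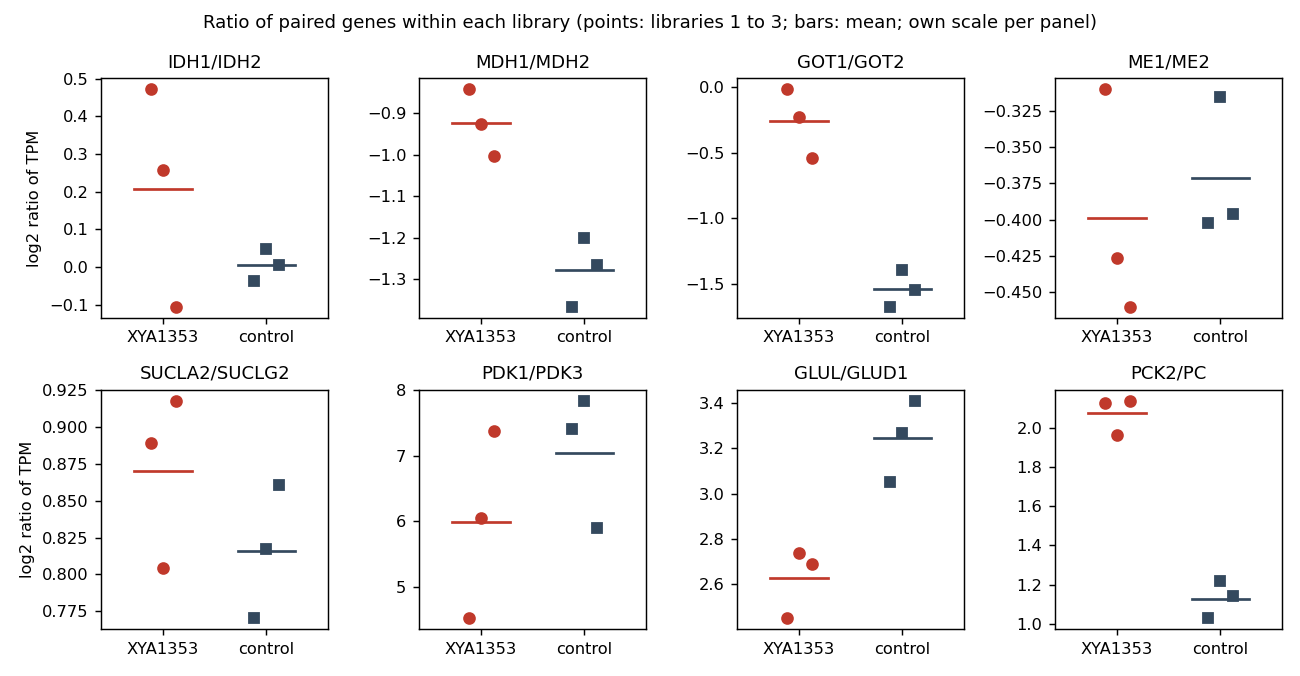
Each panel shows the log2 ratio of TPM of a pair of genes within a library (y axis, its own scale per panel), with points for the 3 XYA1353 and the 3 control libraries and a line for the mean. GOT1/GOT2, MDH1/MDH2 and PCK2/PC stand higher in XYA1353 libraries and GLUL/GLUD1 lower, without overlap, while the points of the other 4 pairs overlap.

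Other genes around the cycle were read from 7 lists chosen by role, with 64 of 74 genes tested. Of these 6 rose, 16 fell and 42 were not called. In both directions together 34.4% were called, near the 31.4% of all genes tested. By direction the calls of the lists leaned lower, whereas over all genes tested 2067 rose and 2143 fell. Their median log2 fold change was -0.20. Among 12 further cycle genes 1 rose and 5 fell. SDHD, a membrane anchor of succinate dehydrogenase, averaged 131 ± 11.2 TPM in XYA1353 and 191 ± 9.18 TPM in control libraries (SD, n = 3 each; -0.54, adjusted p = 0.00302), and SDHAF3, an assembly factor of that enzyme, fell by 0.85 on the log2 scale. DHTKD1, which encodes a 2-oxoadipate dehydrogenase related to OGDH, rose by 0.64. Among 16 genes of lipoate and iron-sulfur supply 2 rose and 4 fell. MCAT, of mitochondrial fatty acid synthesis, fell by 0.73, NDUFAB1, the acyl carrier protein on which lipoate is built, fell by 0.52, and ISCU, the iron-sulfur scaffold, rose by 0.52. The ISCU call was lost without both libraries numbered 1 (adjusted p = 0.0579).

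Of the further pyruvate genes and those of citrate export and mitochondrial exchange, all that were called were lower. LDHA, of lactate dehydrogenase, averaged 276 ± 15.9 TPM in XYA1353 and 459 ± 17.3 TPM in control libraries (SD, n = 3 each; -0.73, adjusted p = 0.00122), and LDHB, its other subunit, fell by 0.33, the called genes among 6 tested. ACLY, which splits exported citrate into acetyl-CoA, averaged 98.6 ± 5.57 TPM in XYA1353 and 171 ± 6.51 TPM in control libraries (SD, n = 3 each; -0.78, adjusted p = 0.00122), and SLC25A22, a mitochondrial glutamate carrier, fell by 0.77, the called genes among 7 of citrate export and exchange. SLC25A1, the mitochondrial citrate carrier itself, was not called (log2 fold change 0.06, limma adjusted p = 0.576). It averaged 184 ± 10.2 TPM in XYA1353 and 177 ± 12.1 TPM in control libraries (SD, n = 3 each). Among 11 further glutamine and glutamate genes 1 rose and 1 fell. GPT2, the mitochondrial alanine aminotransferase, rose by 0.56 and ALDH18A1, which starts proline synthesis, fell by 0.68. Dropping XYA1353 replicate 1 or 2, or control replicate 1 or 3, ended the GPT2 call (adjusted p from 0.081 to 0.0882).

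Branched-chain and propionate genes gave 4 calls among 12 tested, again near the share of all genes. Of 7 branched-chain genes BCKDHA, of the branched-chain ketoacid dehydrogenase, rose by 0.39, BCKDK, the kinase that inhibits it, fell by 0.28, and BCAT1, a cytosolic aminotransferase, fell by 0.32. Of 5 propionate genes MMAB, of cobalamin metabolism, rose by 0.40. Each of these 4 calls was lost without at least 4 of the 6 libraries in turn, with adjusted p from 0.0628 to 0.0907 for BCKDHA, 0.0515 to 0.092 for BCKDK, 0.0751 to 0.0913 for BCAT1 and 0.0518 to 0.136 for MMAB. With no filter on low values the calls of BCKDHA, BCAT1 and MMAB were also lost (adjusted p from 0.0546 to 0.111), as was that of GPT2 (adjusted p = 0.0652), and median-of-ratios scaling and the rescaling above ended the MMAB call (adjusted p = 0.0617 and 0.0804). Without a mean-variance trend the BCAT1 and MMAB calls were lost (adjusted p = 0.0533 and 0.074), and without both libraries numbered 1 these 4 calls and that of GPT2 (adjusted p from 0.0634 to 0.184).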

How the data were processed

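The labels' protocols state that a Qiagen RNeasy kit served for RNA and a SMARTer mRNA kit for the libraries. The deposited values are TPM per gene, computed by the authors; 2 further deposited columns of group means were not used. The submitters' processing notes name mouse builds (GRCm38, mm10), while the table holds human Ensembl identifiers; the sources used here do not give the aligner, counter or annotation. Gene coordinates are those of GENCODE 29 (GRCh38), matched by identifier for all 36 members, while the promoter windows are from RefSeq.

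Values were transformed as log2(TPM + 1), and 13392 named genes averaging 1 TPM or more were fitted with limma 3.58.1 (eBayes with a trend, no covariate) in R 4.3.3 and tested two-sided. The code was tested on simulated data. Exact tests used scipy 1.17.1, with pandas 2.3.3 and matplotlib 3.10.9. The members, role groups and lists were chosen with earlier results of these data known. Every member is accounted for. From each other list up to 3 called genes of the largest change, averaging 5 TPM or more, are named, and SLC25A1 besides, though not called. Libraries with the same replicate number deviated together weakly (correlations across genes of 0.111, 0.114 and 0.133), so the number may pair them. The main fit took no account of this, and a replicate block was fitted as an alternative. The alternatives were other pseudocounts, filters and scalings, no trend, the replicate block, and libraries left out.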

Additional observations from a re-analysis of the deposited data

How the results depend on the processing

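Of the 23 called members, 11 (CS, IDH3B, SUCLA2, FH, MDH2, PDHB, DLAT, PDK4, PCK2, GOT2 and GLUL) kept their call in every alternative in which they were tested, PDK4 being left out where a mean of 5 TPM was required. Over the single libraries left out, the members called ranged from 4 to 5 higher and from 12 to 18 lower. All genes called ranged from 1200 to 2350 higher and from 1408 to 2110 lower, and genes of the 7 other lists from 2 to 5 higher and from 11 to 23 lower. Without both libraries numbered 1 the counts higher and lower were 2 and 9 for members, 649 and 783 for all genes, and 1 and 9 for the lists, in a fit with fewer libraries, which detects less. With no filter on low values, 2 list genes rose. After rescaling without ribosomal RNA, mitochondrial and immunoglobulin genes, 25 list genes and 2686 of all genes fell. The median log2 fold change was then -0.34 for the members and -0.04 for all genes. MDH1 turned to 0.0515 under quantile normalization and PC to 0.0172 without both libraries numbered 1; neither was called, and the causes were not tested. The ME1 over ME2 difference ranged from -0.0721 to 0.00291 over the libraries left out. With the replicate block, 5 members rose and 18 fell, 2110 and 2176 of all genes, and 7 and 15 of the lists; apart from ACO1 and ME2 it changed no member's call. For the 8 ratios, an exact test within replicate numbers, chosen after seeing the data, gave p from 0.25 to 0.75. Depth is unknown, so its limits cannot be stated.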
